A study of Mus musculus with 17 samples.

Results

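Islets in which the rat insulin promoter drove Cre in mice with both Men1 and Rbp2 floxed, called the double knockout here, were set against islets that carried the Cre transgene alone. Arrays were taken by title from the deposited log2 intensities, which gave 4 double-knockout arrays and 3 RIP-Cre arrays of the 17 in the series. The other 10 arrays are 3 of wild-type (wt) islets, 3 of Men1 RIP-Cre islets and 4 of Rbp2 RIP-Cre islets, and they entered as second controls or single knockouts. All mice were 2 months old and untreated. The double knockout carries Men1flf, Rbp2flf and RIP-Cre. RIP-Cre carries the transgene with no floxed allele named in its title, and wt carries neither. The insulin promoter is used to direct Cre to beta cells, and recombination in other islet cells was not measured. Titles give repeat numbers only, and whether each array is its own animal or pool is not said, so p-values reflect array-to-array spread, which may be technical. The comparison asks what islets look like when menin and its counterpart are lost together.

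The Men1 product, menin, is a tumour suppressor of endocrine glands that works in complexes which methylate histone H3 at lysine 4, a mark of active promoters. Rbp2, now named Kdm5a, codes for a demethylase that takes the same mark away and that also binds the retinoblastoma protein. In beta cells menin is known to hold back proliferation, in part through the CDK inhibitor genes Cdkn1b and Cdkn2c, and mice that lose it in these cells later form insulinomas.

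Each of 19938 genes was read from the probe set with the highest mean level, on a log2 scale, and levels are compared between arrays and not between genes. The islet label fitted the markers: Ins2 lay between 13.54 and 13.69 on all 7 arrays, and Gcg, Sst and Ppy were all above 12.9. Exocrine signal varied within both groups, since the mean of 15 acinar genes was 10.25 on RIP-Cre array 3 and 10.19 on double-knockout array 3, against 7.97 to 8.96 on the other 5. RIP-Cre array 3 also had the highest array median, 8.16. RIP-Cre medians spanned 7.97 to 8.16 and double-knockout medians 7.88 to 7.95, so the groups did not overlap in this measure. The difference between groups depended on level. In the lowest of 10 bins of genes by level the median difference, double minus RIP-Cre, was -0.30, in the highest bin it was 0.21, and over all genes it was -0.15. Cyclic loess, which levels such a trend between arrays, brought these medians to -0.06, 0.01 and -0.03, and results are given after that step too. In bulk islets, fewer cells of a type and less RNA per cell cannot be told apart.

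**Figure D1:**
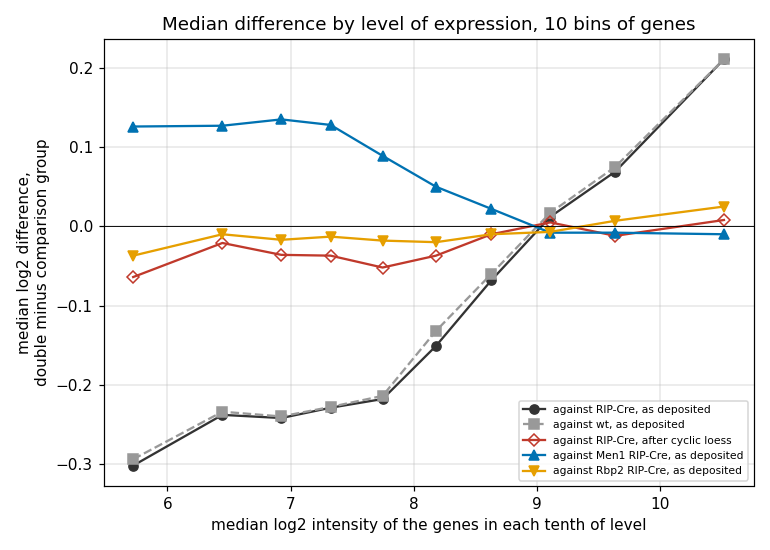
Median log2 difference of the double knockout from each comparison group (vertical axis) in 10 bins of genes ordered by level, placed at the median log2 intensity of the bin (horizontal axis). Against RIP-Cre and wt the line climbs from about -0.30 to 0.21, while after cyclic loess it stays between -0.06 and 0.01 and against Rbp2 RIP-Cre between -0.04 and 0.03.

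Men1 was lower on every double-knockout array than on every RIP-Cre array. It read 9.31, 9.49 and 9.38 on the RIP-Cre arrays and 8.87, 8.54, 8.64 and 8.46 on the double-knockout arrays. The difference was -0.77 (SE 0.11, adjusted p = 0.000558), about 1.70-fold, with wt giving -0.71 and cyclic loess -0.78. The double knockout did not differ from Men1 RIP-Cre by the test (0.30, adjusted p = 0.205), and its difference from Rbp2 RIP-Cre was -1.50. Kdm5a gave no such check. It read 9.37, 9.31 and 9.09 on RIP-Cre arrays against 9.39, 9.07, 9.39 and 9.10 in the double knockout, a difference of -0.02 (SE 0.11, adjusted p = 0.896) between groups that overlap. Where the Kdm5a probes lie in the gene was not analysed, and probes outside the deleted part check nothing about the deletion.

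Of the 19938 genes, 6716 (33.7%) were called between the double knockout and RIP-Cre at an adjusted p under 0.05. Of these 2600 (13.0%) were higher and 4116 (20.6%) lower, and 245 differed at least 2-fold, 159 of them higher and 86 lower. After cyclic loess the split was 2678 higher (13.4%) and 2445 lower (12.3%), and 4115 genes were called in the same direction both ways. Quantile normalization gave 2605 higher and 3150 lower. When the array median was a covariate, 280 genes passed, 172 higher and 108 lower. The median size of the 6716 differences then went from 0.46 to 0.24 while their median SE stayed at 0.13. Without RIP-Cre array 3 the count was 2371, with 1257 higher and 1114 lower. It was 3958 without double-knockout array 2 and 3619 without array 4.

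The 4 double-knockout arrays were not alike among the changed genes. In 1931 of the 2600 genes called higher (74.3%), arrays 2 and 4 both lay above arrays 1 and 3, against 21.1% of all genes. In 2266 of the 4116 called lower (55.1%), arrays 2 and 4 both lay below arrays 1 and 3, against 31.5% of all genes. Arrays 2 and 4 also had the lowest acinar means of the group, 8.51 and 8.34 against 8.84 and 10.19. The part of exocrine signal in these differences was not tested beyond 2 settings, which were the acinar mean as a covariate (7494 genes called) and the fit without array 3 of both groups (2891 called).

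Few genes set the double knockout apart from the single knockouts. Against Men1 RIP-Cre 333 genes (1.67%) were called, 220 higher and 113 lower, and against Rbp2 RIP-Cre 239 genes (1.20%), 116 higher and 123 lower. These comparisons and the one with RIP-Cre share the 4 double-knockout arrays. The median differences over all genes were 0.07 and -0.01, and over the 10 bins of level they lay between -0.01 and 0.14 against Men1 RIP-Cre. The count against Men1 RIP-Cre was 111 without Men1 RIP-Cre array 1, 176 without its array 3 and 211 without double-knockout array 1. The count against Rbp2 RIP-Cre was 130, 159 and 133 without double-knockout arrays 2, 3 and 4, and 109, 132 and 137 without Rbp2 RIP-Cre arrays 2, 3 and 4. A total of 12 genes were called in the same direction against RIP-Cre, Men1 RIP-Cre and Rbp2 RIP-Cre, 10 of them higher and 2 lower.

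The potassium channel gene Kcnh5 moved furthest of the 12. It read 7.02, 7.36 and 7.95 on RIP-Cre arrays and 9.04, 9.61, 9.10 and 9.12 in the double knockout, where each array lay above all 13 others. The differences were 1.77 (SE 0.21, adjusted p = 0.000167) from RIP-Cre, 1.23 (adjusted p = 0.00414) from Men1 RIP-Cre and 2.20 (adjusted p = 1.95e-05) from Rbp2 RIP-Cre. Cpne4, which codes for a copine that binds phospholipids with calcium, read 7.11, 7.16 and 7.62 against 8.32, 8.58, 8.51 and 8.57. It differed by 1.20 (SE 0.14), 0.89 and 0.85 from the 3 groups in the same order, again with no overlap with any of the 13 other arrays. Slc38a6, of the family of sodium-coupled amino acid transporters, read 7.82, 7.98 and 7.83 against 8.92, 9.25, 8.89 and 8.76. Its 3 differences were 1.08 (SE 0.10, adjusted p = 3.12e-05), 0.55 and 0.84.

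Gpr179, an orphan receptor best known from retinal bipolar cells, stood near 7.8 in RIP-Cre (7.81, 7.56, 7.80) and at 8.82, 8.71, 8.61 and 8.59 in the double knockout. It differed by 0.96 (SE 0.17), 0.94 and 0.89. Slc22a2, the organic cation transporter OCT2, differed by 0.63 (SE 0.14), 0.60 and 0.60. These 5 are named because the smallest of their 3 differences was larger than in the others that rose. All 5 of these genes had double-knockout arrays above the 13 others, were called with wt as the control and after cyclic loess, and stayed called against RIP-Cre whichever of the 7 arrays was left out. These checks reuse the double-knockout arrays by which the genes were chosen, so they are not independent of that choice. The share of all genes whose double-knockout arrays lie beyond the 13 others was not counted. The other 5 that rose beyond both single knockouts are named here after their values were seen. They are Cdk5rap1 (0.51), Dnah9 (0.52), Cryl1 (0.66), Myo7a (0.42) and Arhgef17 (0.37), differences from RIP-Cre. Myo7a missed the threshold against wt (0.06, adjusted p = 0.704) and without RIP-Cre array 3 or double-knockout array 1, Cdk5rap1 missed it without RIP-Cre array 3, and Arhgef17 after cyclic loess.

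Spock1, a secreted proteoglycan also called testican, was the clearer of the 2 that fell beyond both. It read 10.45, 10.27 and 10.04 on RIP-Cre arrays and 9.98, 9.56, 9.47 and 9.67 in the double knockout. The differences were -0.58 (SE 0.15, adjusted p = 0.01) from RIP-Cre, -0.73 from Men1 RIP-Cre and -0.63 from Rbp2 RIP-Cre. Mpp6, a membrane-associated scaffold, differed by -0.41, -0.67 and -0.64. Its call was lost after cyclic loess (adjusted p = 0.0682) and without RIP-Cre array 2, and its second probe set moved the other way (0.37). In the gene order of RefSeq (GRCm38.p6), Kcnh5 and Slc38a6 lie on chromosome 12 with 8 measured genes between them, 4 of which were called against RIP-Cre, where 33.7% of all genes were, and none against a single knockout. Myo7a and Arhgef17 lie on chromosome 7 with 47 between them, 17 of which were called against RIP-Cre and 1, Coa4, named after its values were seen, against each single knockout.

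**Figure D2:**
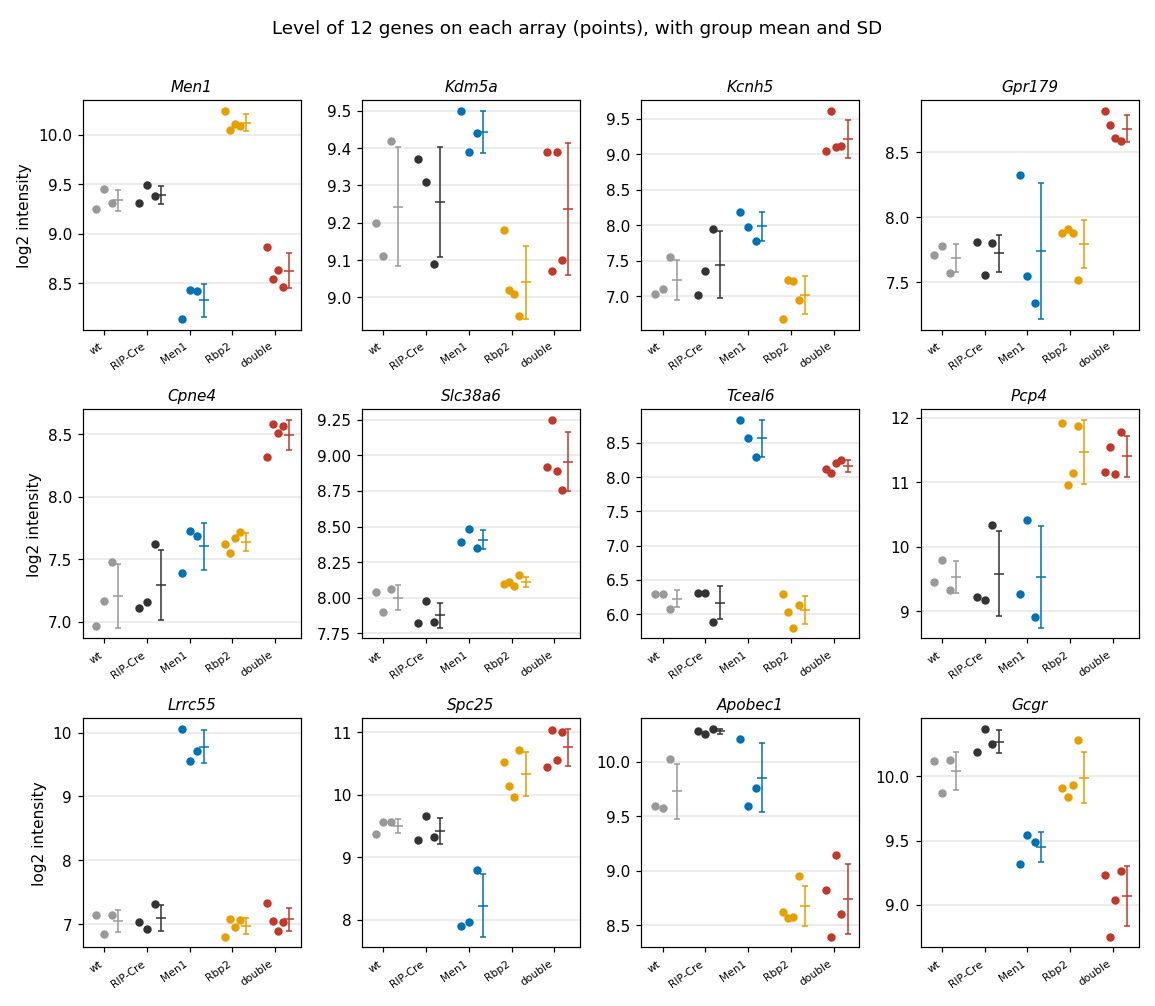
Log2 intensity (vertical axis) of 12 genes on each of the 17 arrays by group (horizontal axis), with points for arrays and a bar for the group mean and SD. The double-knockout points of Kcnh5, Gpr179, Cpne4 and Slc38a6 sit above all other points, those of Tceal6 sit with Men1 RIP-Cre, those of Pcp4 and Apobec1 with Rbp2 RIP-Cre, and Lrrc55 is high in Men1 RIP-Cre alone.

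The promoters of 7 genes are shown because these genes separate the double knockout from RIP-Cre, from a single knockout or from both, and the 250 bases before each start lie outside the annotated gene. Sequences are from RefSeq on GRCm38.p6, written 5′ to 3′ on the strand of the gene. Capitals mark CCGCCC or its reverse complement GGGCGG. The first is the motif that the DNA-binding domain of RBP2 is known to prefer, and the second is the core of the GC box that Sp1 binds, so a match cannot be assigned to either factor. The windows are Kcnh5 at chr12:75177333-75177582 (minus strand), Gpr179 at chr11:97352357-97352606 (minus), Slc22a2 at chr17:12583939-12584188 (plus), Tceal6 at chrX:135210688-135210937 (minus), Pcp4 at chr16:96467356-96467605 (plus), Lrrc55 at chr2:85198751-85199000 (minus) and Spc25 at chr2:69206214-69206463 (minus).
Kcnh5: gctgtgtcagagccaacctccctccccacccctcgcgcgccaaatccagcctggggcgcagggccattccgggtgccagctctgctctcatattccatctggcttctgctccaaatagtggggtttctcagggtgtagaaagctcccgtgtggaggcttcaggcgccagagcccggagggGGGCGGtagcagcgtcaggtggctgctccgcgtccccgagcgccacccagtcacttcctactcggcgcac
Gpr179: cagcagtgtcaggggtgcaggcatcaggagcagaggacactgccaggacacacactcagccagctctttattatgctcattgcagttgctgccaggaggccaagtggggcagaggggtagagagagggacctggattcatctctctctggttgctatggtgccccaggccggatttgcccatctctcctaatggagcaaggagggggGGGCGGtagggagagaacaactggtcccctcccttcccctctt
Slc22a2: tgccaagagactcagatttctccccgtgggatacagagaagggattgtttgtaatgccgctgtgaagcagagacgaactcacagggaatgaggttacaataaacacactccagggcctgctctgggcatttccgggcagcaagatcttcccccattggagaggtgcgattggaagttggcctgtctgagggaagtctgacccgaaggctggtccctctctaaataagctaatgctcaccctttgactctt
Tceal6: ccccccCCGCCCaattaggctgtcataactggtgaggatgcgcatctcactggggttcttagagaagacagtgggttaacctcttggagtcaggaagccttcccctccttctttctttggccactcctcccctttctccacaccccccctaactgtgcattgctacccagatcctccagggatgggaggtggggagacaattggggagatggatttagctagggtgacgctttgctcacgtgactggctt
Pcp4: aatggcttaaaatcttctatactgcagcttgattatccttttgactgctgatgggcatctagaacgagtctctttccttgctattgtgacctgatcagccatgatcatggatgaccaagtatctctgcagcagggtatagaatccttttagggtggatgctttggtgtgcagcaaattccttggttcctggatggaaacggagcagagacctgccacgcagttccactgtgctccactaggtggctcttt
Lrrc55: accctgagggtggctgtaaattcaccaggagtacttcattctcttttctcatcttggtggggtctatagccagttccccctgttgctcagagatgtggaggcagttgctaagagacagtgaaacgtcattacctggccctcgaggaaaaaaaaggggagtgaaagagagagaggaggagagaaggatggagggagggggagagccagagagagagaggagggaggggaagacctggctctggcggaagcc
Spc25: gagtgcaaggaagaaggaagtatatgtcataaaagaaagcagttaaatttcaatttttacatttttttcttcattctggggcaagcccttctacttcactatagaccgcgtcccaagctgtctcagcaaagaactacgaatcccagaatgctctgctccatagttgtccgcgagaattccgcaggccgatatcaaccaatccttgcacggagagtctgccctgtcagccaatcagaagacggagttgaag
The motif occurs in the windows of Kcnh5, Gpr179 and Tceal6, with 1 match each, and not in the other 4 windows. CG pairs number 16 in the Kcnh5 window, 9 in Spc25, 6 in Slc22a2, 4 in Tceal6, 3 each in Pcp4 and Lrrc55, and 2 in Gpr179, where the median of all 32851 windows is 6. Over all windows, counting several starts of a gene separately, 10756 (32.7%) hold the motif on either strand. Among genes with a window it is 49.3% of those tested, 63.7% of those called higher against RIP-Cre and 45.8% of those called lower. After cyclic loess the last 2 shares were 60.4% and 57.6%. Of the 12 genes beyond both single knockouts 11 have a window, and 8 of these hold the motif (72.7%). Binding was not measured here.

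The 15 genes with the highest difference from RIP-Cre rose by 1.55 to 2.07 on the log2 scale, about 2.9-fold to 4.2-fold. The groups did not overlap in any of the 15, a criterion met by 39.1% of all genes and by 5879 of the 6716 called. The 15 were chosen by size on these same arrays, so neither this nor the refits are independent of that choice. All 15 passed with wt as the control, after cyclic loess and with each RIP-Cre or double-knockout array left out, and 10 passed with the array median held fixed. In 12 of the 15, double-knockout arrays 2 and 4 lay above arrays 1 and 3.

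Slitrk6, a neuronal adhesion protein, read 8.80, 8.56 and 7.85 on RIP-Cre arrays and 9.98, 10.78, 10.30 and 10.84 in the double knockout, a difference of 2.07 (SE 0.28, adjusted p = 0.000448). Defb1, an antimicrobial beta-defensin of epithelia, read 8.65, 8.26 and 8.02 against 9.69, 10.92, 10.17 and 10.74, also 2.07 (SE 0.23, adjusted p = 0.000167). Neither differed from Men1 RIP-Cre by the test (-0.52 and -0.21), and against Rbp2 RIP-Cre they stood at 1.08 (adjusted p = 0.053) and 0.82 (adjusted p = 0.0766). Lgi1, a secreted protein of synapses, rose by 1.78, and Tfrc, the transferrin receptor through which cells take up iron, by 1.68. Marcks, a membrane-bound substrate of protein kinase C, rose by 1.70, Tmem255a by 1.72, Gpr155, a cholesterol-sensing protein of lysosomes, by 1.62, and C1galt1, which makes the core of O-linked sugar chains, by 1.68.

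Tceal6, of a family named for its likeness to the elongation factor TFIIS, was the most sharply separated. It read 6.31, 6.31 and 5.89 on RIP-Cre arrays and 8.12, 8.06, 8.21 and 8.25 in the double knockout, a difference of 1.99 (SE 0.14, adjusted p = 2.31e-06). The 4 arrays lay 2.10 above Rbp2 RIP-Cre (adjusted p = 3.2e-07) and did not differ from Men1 RIP-Cre by the test (-0.40, adjusted p = 0.194). Pcp4, a small calmodulin-binding protein of Purkinje cells, had the opposite partner. It read 9.22, 9.18 and 10.34 against 11.15, 11.55, 11.13 and 11.78, a difference of 1.82 (SE 0.35, adjusted p = 0.00297), with 1.87 (adjusted p = 0.00854) over Men1 RIP-Cre and -0.07 from Rbp2 RIP-Cre. Scgn, the calcium-binding protein secretagogin of islet cells, read 10.93, 10.61 and 10.69 against 11.90, 12.58, 12.13 and 12.56, a rise of 1.55 (SE 0.18).

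Ei24, a protein of the endoplasmic reticulum (ER), rose by 1.64, Emc7, of the ER membrane complex that inserts proteins, by 1.55, and Uqcrb, a subunit of respiratory complex III, by 1.58. These showed the unequal double-knockout arrays most plainly. Uqcrb read 9.71 and 9.98 on arrays 1 and 3 and 11.45 and 11.19 on arrays 2 and 4, with RIP-Cre at 9.41, 8.79 and 8.80. All 3 of its probe sets were higher, by 1.40 to 1.64.

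**Figure D3:**
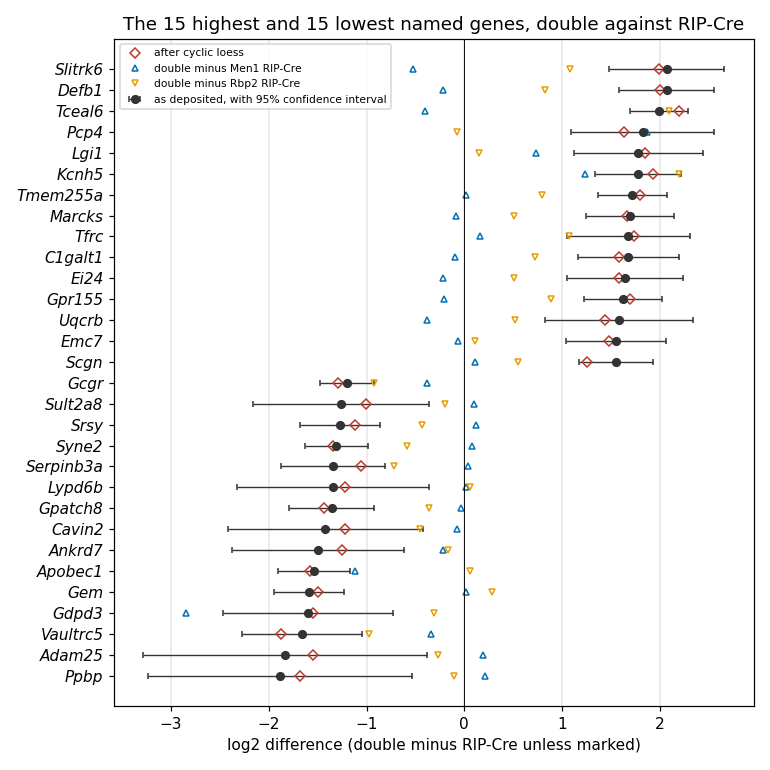
Log2 difference (horizontal axis) of the 15 highest and 15 lowest named genes (vertical axis). Filled points are double minus RIP-Cre with the 95% confidence interval, diamonds the same after cyclic loess, and triangles the difference from Men1 RIP-Cre (up) and Rbp2 RIP-Cre (down). The widest intervals belong to Ppbp, Adam25 and other low genes.

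The 15 lowest genes were a more mixed set. They fell by 1.20 to 1.88 on the log2 scale, and the groups did not overlap in 12. Only 8 passed with wt as the control, 10 after cyclic loess, 6 with the array median held fixed, and 10 with each array left out. In 6 of them 1 RIP-Cre array stood far above the other 2. Ppbp, a chemokine of platelets, read 6.72, 10.49 and 8.03 on RIP-Cre arrays and 6.12 to 7.44 in the double knockout. Without RIP-Cre array 2 its difference went from -1.88 to -0.85 (adjusted p = 0.173). Adam25, a protease of the testis, read 4.92, 4.45 and 8.99, and without array 3 it went from -1.83 to -0.40 (adjusted p = 0.209).

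Cavin2, a coat protein of caveolae, was high on RIP-Cre array 1 (10.14 against 7.12 and 7.31), Sult2a8, a sulfotransferase, on array 1 (7.69 against 4.83 and 5.41), Lypd6b on array 2 (11.11 against 8.08 and 8.37) and Ankrd7 on array 2 (7.89 against 5.29 and 5.75). Without these arrays Lypd6b stood at -0.39 (adjusted p = 0.0668) and Sult2a8 at -0.41 (adjusted p = 0.0967), while Cavin2 (-0.45, adjusted p = 0.0455) and Ankrd7 (-0.70, adjusted p = 0.0291) remained past the threshold. Against wt none of the 6 passed.

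**Figure D4:**
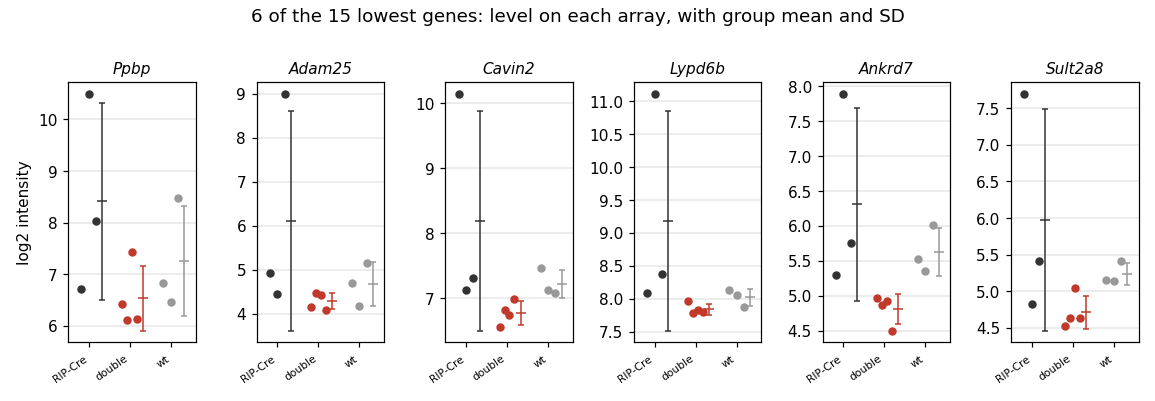
Log2 intensity (vertical axis) of 6 of the 15 lowest genes on the RIP-Cre, double-knockout and wt arrays (horizontal axis), with points for arrays and bars for group mean and SD. In each gene 1 RIP-Cre point lies far above the other 2, for Adam25 at 8.99 against 4.92 and 4.45.

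The remaining low genes had RIP-Cre arrays close together. Gem, a small GTPase that inhibits voltage-gated calcium channels, read 9.53, 9.60 and 9.15 on RIP-Cre arrays and 7.52, 8.03, 7.56 and 8.25 in the double knockout. It fell by 1.59 (SE 0.17, adjusted p = 0.000143), and it did not differ from Men1 RIP-Cre (0.02) or Rbp2 RIP-Cre (0.28) by the test. Gcgr, the glucagon receptor, read 10.19, 10.37 and 10.25 against 9.23, 8.75, 9.04 and 9.26. It fell by 1.20 (SE 0.13, adjusted p = 0.000154), lay below all 13 other arrays and differed by -0.92 from Rbp2 RIP-Cre (adjusted p = 0.000723) and by -0.38 (adjusted p = 0.187) from Men1 RIP-Cre.

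Apobec1, the cytidine deaminase that edits apolipoprotein B RNA, read 10.28, 10.25 and 10.30 on RIP-Cre arrays and 8.82, 8.39, 9.14 and 8.60 in the double knockout. It fell by 1.54 (SE 0.17, adjusted p = 0.000167), differed by -1.12 from Men1 RIP-Cre (adjusted p = 0.00246) and by 0.06 from Rbp2 RIP-Cre. Apobec1 and Kdm5a lie on chromosome 6 with 24 measured genes between them, 12 of them called against RIP-Cre (33.7% of all genes were) and 2 against Men1 RIP-Cre (1.67% of all genes), which are Usp18 and Iqsec3, named after their values were seen. Vaultrc5, the small RNA of vault particles, fell by 1.66, Serpinb3a, a protease inhibitor, by 1.34, and Syne2, which links the nucleus to the cytoskeleton, by 1.31, with all 4 of its probe sets lower (-1.31 to -0.50). Gpatch8 fell by 1.36 on the probe set used, but its 5 probe sets spanned -1.36 to 0.24. Srsy, a multicopy gene with 19 probe sets between -1.37 and -1.27, fell by 1.27, and its copies cannot be told apart.

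Some genes separated the double knockout from loss of Men1 alone. Lrrc55, an auxiliary subunit of large-conductance potassium channels, read 7.33, 7.05, 6.90 and 7.04 in the double knockout and 7.03, 6.93 and 7.32 on RIP-Cre arrays, a difference of -0.01 (adjusted p = 0.944). Men1 RIP-Cre arrays stood between 9.56 and 10.06, so that the double knockout differed from them by -2.70 (SE 0.14, adjusted p = 1.47e-08). Prom1, the membrane protein prominin of apical surfaces, stood at -0.11 from RIP-Cre (adjusted p = 0.72) and 1.88 above Men1 RIP-Cre (adjusted p = 0.00045). Gdpd3, a lysophospholipase, read 9.42, 9.07 and 9.26 on RIP-Cre arrays and 7.71, 7.44, 7.88 and 7.58 in the double knockout. It fell by 1.60 (adjusted p = 0.0109) and differed by -2.84 from Men1 RIP-Cre (adjusted p = 0.00132), though not past the threshold against wt (-0.78, adjusted p = 0.146).

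Spc25, a kinetochore subunit that lies beside the glucose-6-phosphatase gene G6pc2 on chromosome 2, read 9.27, 9.66 and 9.33 on RIP-Cre arrays and 10.45, 11.03, 10.56 and 11.00 in the double knockout. It rose by 1.34 (SE 0.22, adjusted p = 0.00152), stood 2.54 above Men1 RIP-Cre (adjusted p = 1.29e-05) and did not differ from Rbp2 RIP-Cre by the test (0.42). G6pc2 rose by 1.16 against RIP-Cre and differed by -0.19 from Men1 RIP-Cre (adjusted p = 0.591). Ccnd1 and Nnat are named here after their values were seen. Ccnd1, cyclin D1, rose by 0.73 (adjusted p = 0.015) and stood 1.38 above Men1 RIP-Cre (adjusted p = 0.00142), and its call against RIP-Cre was lost without RIP-Cre array 2 or double-knockout array 4. In the other direction, Nnat, the imprinted neuronatin gene, which supports insulin processing, read 9.45, 9.55 and 8.79 against 10.04, 10.77, 10.69 and 11.28. It rose by 1.43 (adjusted p = 0.00487), 1.60 above Rbp2 RIP-Cre (adjusted p = 0.00932), with -0.51 from Men1 RIP-Cre.

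As deposited, genes of the beta cell were called higher more often than lower, and cyclic loess moved both counts. Counts in this and the following lists are to be read against all genes. Of these 13.0% were called higher and 20.6% lower as deposited, and 13.4% and 12.3% after cyclic loess. Of 14 transcription factors of the lineage 7 were called higher and none lower (median 0.26, all genes -0.15), but after cyclic loess 2 were higher and 3 lower (median 0.07). The number higher was 1 without RIP-Cre array 3, 3 or 4 without its array 1, 2 or double-knockout array 1 or 3, and 2 without double-knockout array 2 or 4. Insm1, a zinc finger repressor of endocrine cells, read 10.31, 10.30 and 9.94 on RIP-Cre arrays and 10.61, 11.27, 10.84 and 11.06 in the double knockout, a rise of 0.76 (SE 0.15, adjusted p = 0.0033) that stayed past the threshold after cyclic loess (0.55) and with each array left out in turn. Neurod1 (0.41) and Isl1 (0.30) were not called after that step. Nkx6-1 (-0.07), Mafa (-0.26) and Myt1 (-0.27) did not pass as deposited and were lower after it (-0.34, -0.51 and -0.44).

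Of 22 genes for glucose sensing, channels and insulin handling 10 were called higher and 2 lower (median 0.34), and 5 and 4 after cyclic loess (median 0.12) and 5 and 2 without RIP-Cre array 3. Glp1r, the receptor of the incretin GLP-1, read 12.07, 12.28 and 11.48 against 12.94, 13.29, 12.96 and 13.21, a rise of 1.16 (SE 0.16, adjusted p = 0.000491). G6pc2, the glucose-6-phosphatase that sets the glucose threshold of beta cells, read 11.61, 11.71 and 11.18 against 12.37, 13.00, 12.49 and 12.79 (adjusted p = 0.000548). Slc30a8, the zinc transporter of insulin granules, rose by 0.68, with 0.25 after cyclic loess (adjusted p = 0.0616). In the other direction, Gpr119, a receptor for lipid amides that raises insulin release, read 8.42, 8.29 and 8.31 against 7.38, 7.82, 7.67 and 7.40. It fell by 0.77 (SE 0.14, adjusted p = 0.00268) and differed by -0.73 from Rbp2 RIP-Cre, and Cacnb2, a calcium channel subunit, fell by 0.56 (adjusted p = 0.00324).

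The hormone genes sit near the top of the intensity scale and did not pass. The differences were 0.08 for Ins2 (95% interval -0.06 to 0.22), 0.11 for Gcg (-0.22 to 0.43), 0.05 for Sst (-0.35 to 0.44) and 0.44 for Ppy (-0.07 to 0.95). After cyclic loess Ins2 (-0.39, adjusted p = 0.041) and Sst (-0.42, adjusted p = 0.0401) were called lower. Among 10 genes of the other endocrine cells 3 were called lower and 1 higher (median 0.01), and 4 lower after cyclic loess (median -0.39). The alpha cell factor Irx1 read 8.60, 8.20 and 8.69 against 8.08, 7.73, 7.72 and 7.66, a fall of 0.70 (SE 0.13, adjusted p = 0.00268). Irx2, its neighbour in that family, fell by 0.77 and Hhex, the delta cell factor, by 0.67, and all 3 were called after cyclic loess and with each array left out in turn. Ttr, transthyretin, was called higher (0.67, adjusted p = 0.0329) but not after cyclic loess (0.35) or without RIP-Cre array 2 or 3 or double-knockout array 2 or 4.

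Of 22 genes of granins and exocytosis 9 were called higher and 4 lower (median 0.15), and after cyclic loess 4 higher and 7 lower (median -0.02). The number higher was 3 without RIP-Cre array 3 or double-knockout array 4, and 4 without double-knockout array 2. The granin Scg2 read 12.04, 11.85 and 11.89 against 12.66, 12.90, 12.71 and 12.96, a rise of 0.88 (SE 0.15, adjusted p = 0.00171). Among the SNARE proteins that fuse granules with the membrane, Snap25 rose by 0.81 (adjusted p = 0.00436) and its partner Stx1a fell by 0.65, from 8.74, 8.55 and 9.06 to 8.30, 7.99, 8.23 and 8.02 (adjusted p = 0.00417). Unc13a, which primes granules, fell by 0.45. These 4 kept their direction and their call after cyclic loess. Of 16 genes that beta cells usually keep silent 1 was higher and 3 lower (18.8%, near the 20.6% of all genes), with Smad3 at -0.45 and Cxcl12 at -0.63. With wt as the control 7 of the 16 were lower (43.8%, median -0.39), where 3574 of all 19938 genes were, and none was higher.

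The CDK inhibitors through which menin is known to act did not pass as deposited, though Cdkn1b was called lower after cyclic loess. Cdkn1b, p27, read 10.92, 11.12 and 10.96 on RIP-Cre arrays and 11.03, 10.91, 10.93 and 11.06 in the double knockout (-0.02, adjusted p = 0.882), with its second probe set at 0.49. After cyclic loess its difference was -0.27 (adjusted p = 0.0248). No gene of the CDK inhibitor list was called after that step without RIP-Cre array 3, or when the array median was a covariate. Cdkn2c, p18, read 6.94, 7.44 and 6.87 against 7.36, 7.54, 7.07 and 7.28 (0.23, adjusted p = 0.211). The groups overlapped in both. Of 6 inhibitors Cdkn1c alone was called as deposited (-0.35, adjusted p = 0.036), and it was not called after cyclic loess or without double-knockout array 2 or 4 or RIP-Cre array 3. Of 18 genes for G1 cyclins, their kinases and the Rb-E2F system 6 were called higher and none lower (median 0.16, after cyclic loess 5 and 1). Ccnd2, the main D cyclin of beta cells, rose by 0.64 and Cdk4 by 0.43, both short of the threshold after cyclic loess (0.24 and 0.09). Rb1 rose by 0.53 (adjusted p = 0.00482) with 0.52 after it.

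The counts for DNA replication and mitosis changed with the setting. Of 25 replication genes 9 were called higher and 1 lower (median 0.12), 12 and 0 after cyclic loess (0.29), 3 higher without RIP-Cre array 3, 4 without array 1 and 5 without double-knockout array 4. Pcna, the sliding clamp, read 8.73, 8.63 and 8.48 against 9.39, 10.09, 9.15 and 9.93, a rise of 1.03 (SE 0.17, adjusted p = 0.00171). The helicase subunit Mcm4 and the ribonucleotide reductase subunit Rrm1 each rose by 0.56, and Orc1, of the origin recognition complex, fell by 0.42. Of 25 mitosis genes 2 were called higher, Spc25 and the spindle checkpoint gene Mad2l1 (0.78, adjusted p = 0.00195), and none lower. After cyclic loess 13 were, with wt as the control 9, and without RIP-Cre array 2, whose mitosis mean of 7.63 exceeded the 7.20 and 7.44 of the other 2, 12. The double-knockout means were 7.80, 7.60, 7.54 and 7.51. Mad2l1 read 7.02, 6.76 and 7.19 against 7.61, 8.03, 7.59 and 7.83, and it was 0.63 higher than in Rbp2 RIP-Cre. Foxm1, the transcription factor of mitotic genes (0.44), and the kinase Plk1 (-0.51) did not pass.

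Of 18 genes for menin and its methyltransferase partners 4 were called higher (3 higher and 2 lower after cyclic loess, and 2 higher without RIP-Cre array 3 or double-knockout array 2 or 4), among them the host cell factor gene Hcfc1 (0.51, adjusted p = 0.0054) and Paxip1 (0.46, adjusted p = 0.00654). Paxip1 stood 0.52 above Men1 RIP-Cre and was not called after cyclic loess (0.24). Of 12 genes for H3K4 demethylases and their partners 4 were higher, against 2 higher and 2 lower after cyclic loess, 1 higher without RIP-Cre array 3 or double-knockout array 2, and 2 without array 4. Morf4l1, a reader of methylated histones, rose by 0.45, and Rcor1, a corepressor of LSD1, differed by -0.35 from Men1 RIP-Cre while not passing against RIP-Cre (-0.19). The Polycomb repressors, which write marks of silenced genes, had 4 of 15 called lower (26.7%, against 20.6% of all genes) and none higher (median -0.10, all genes -0.15), 6 lower and 1 higher after cyclic loess, and 2 lower without RIP-Cre array 3 or double-knockout array 2 or 4. Ring1, a ubiquitin ligase of the first Polycomb complex, read 9.83, 9.84 and 9.84 on RIP-Cre arrays and 9.10, 8.74, 9.23 and 8.93 in the double knockout. It fell by 0.84 (SE 0.12, adjusted p = 0.00056), and Cbx8, a reader in the same complex, by 0.50. Of 37 Hox genes, known targets of menin complexes in other tissues, 19 were called lower and none higher (median -0.37), and 12 after cyclic loess (median -0.22). Their median level was 7.25, and the bin of all genes with a median level of 7.32 had a median difference of -0.23. No Hox gene was called after cyclic loess without RIP-Cre array 3 (median -0.18) or when the array median was a covariate (median -0.06). The list mean was 7.60, 7.57 and 7.99 on RIP-Cre arrays and 7.39, 7.34, 7.39 and 7.20 in the double knockout, and the number called was 1 without RIP-Cre array 3 and 11 without double-knockout array 4. Hoxa5 (-0.50), read as 7.54, 7.46 and 8.14 against 7.19 to 7.24, stayed past the threshold with each array left out in turn.

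The count for the respiratory chain fell after cyclic loess and that for lipid synthesis did not, while both fell when the array median was a covariate. Of 73 genes of the respiratory chain and ATP synthase 46 were higher and none lower (median 0.45), and after cyclic loess 37 and 1 (median 0.33). The list mean was 9.72, 9.59 and 9.50 on RIP-Cre arrays and 9.94, 10.20, 9.93 and 10.27 in the double knockout, with no overlap, and 28 were higher without RIP-Cre array 3. When the array median was a covariate, 2 of the 73 were higher and the median was 0.26. Ndufa9, of complex I, read 8.88, 8.78 and 8.63 against 9.46, 9.83, 9.45 and 9.75, a rise of 0.86 (SE 0.12, adjusted p = 0.000696). Sdhd and Sdhc, the membrane anchors of complex II, rose by 0.70 and 0.81. Of 75 genes of the mitochondrial ribosome 21 were higher and 8 lower (median 0.09), or 13 and 2 without RIP-Cre array 3, from Mrpl42 (1.09) and Mrpl50 (0.87) to Mrpl47 (-0.67).

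Of 27 genes of cholesterol and fatty acid synthesis 17 were higher and none lower (median 0.59), the same number after cyclic loess (median 0.54), and 14 to 18 with each array left out. When the array median was a covariate, 2 passed and the list's median was 0.33. The list mean was 9.00, 9.17 and 9.13 on RIP-Cre arrays and 9.43, 9.77, 9.48 and 9.69 in the double knockout. Fads1, a desaturase of long fatty acids, read 9.77, 9.87 and 9.54 against 10.63, 11.09, 10.43 and 10.95, a rise of 1.05 (SE 0.14, adjusted p = 0.000327). Its neighbour Fads2 rose by 0.80 (SE 0.11, adjusted p = 0.000386) and was 0.54 above Rbp2 RIP-Cre. Insig1, which holds the lipid regulator SREBP in the ER, rose by 0.94. The early enzymes Mvk (-0.09) and Pmvk (-0.20) and the carboxylase Acaca (-0.12) did not pass.

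Of 31 proteasome subunits 18 were higher and 1 lower (median 0.46), 15 and 1 after cyclic loess (median 0.39) and 7 higher without RIP-Cre array 3. None was called when the array median was a covariate (median 0.19). Psmb2, of the catalytic core, read 9.34, 9.22 and 9.32 against 9.90, 10.71, 9.93 and 10.56, a rise of 0.98 (SE 0.18, adjusted p = 0.00234). Psmb7 also rose by 0.98 and Psma1 by 0.85, and the ubiquitin receptor Psmd4 fell by 0.24. Of 27 ER chaperones and genes of the unfolded protein response 15 were higher and 2 lower (median 0.47), against 7 and 2 after cyclic loess (median 0.16) and none higher and 1 lower when the array median was a covariate. The number higher was 2 without RIP-Cre array 3, 9 without RIP-Cre array 1, and 6 without double-knockout array 2 or 4. Manf, a factor secreted under ER stress, rose by 0.82 and the chaperone Canx by 0.73. The stress sensor Ern1 read 11.18, 11.11 and 10.98 against 10.81, 10.66, 10.61 and 10.52, a fall of 0.44 (SE 0.09, adjusted p = 0.0033), and Ddit3, a stress-induced regulator of cell death, fell by 0.49. Within these 4 lists, double-knockout arrays 2 and 4 both lay above arrays 1 and 3 in 69.9% of respiratory chain genes, 64.5% of proteasome genes, 74.1% of lipid genes and 81.5% of ER genes.

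**Figure D5:**
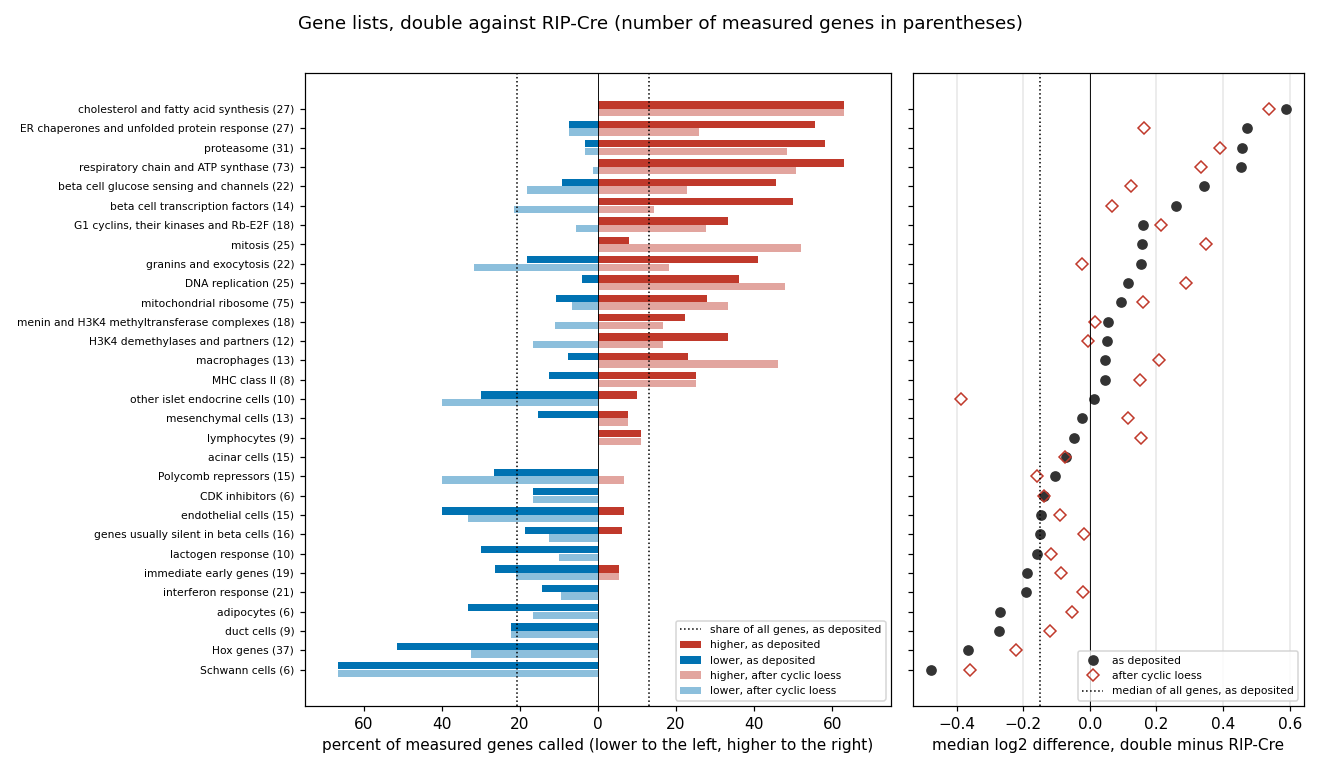
Share of the measured genes of each list called higher (right) or lower (left) in the double knockout against RIP-Cre, as deposited and after cyclic loess, with dotted lines at the shares of all genes (13.0% and 20.6%), and beside it the median log2 difference of each list. Respiratory chain, proteasome and lipid synthesis have high shares in the 2 settings drawn (with the array median as a covariate, not drawn, 2 of 73, 0 of 31 and 2 of 27 were higher), while mitosis goes from 2 to 13 of 25 genes. After cyclic loess without RIP-Cre array 3, not drawn, 2 of the 25 mitosis genes were higher.

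For markers of other cell types in the islet, their part in the results above was not tested unless a setting is given. Over all genes 13.0% were called higher and 20.6% lower as deposited, and the groups did not overlap in 39.1%. None of 15 acinar genes was called as deposited or after cyclic loess. Their median was -0.07, but -0.66 without RIP-Cre array 1, 0.54 without RIP-Cre array 3, -0.54 without double-knockout array 3, and 0.94 when the array median was a covariate. Of 15 endothelial genes 6 were lower and 1 higher, with 3 lower without RIP-Cre array 1 or double-knockout array 2 or 4 and 2 without RIP-Cre array 3, and with list means of 8.93 to 9.21 on RIP-Cre arrays and 8.84 to 8.96 in the double knockout. Egfl7, secreted by vessels, fell by 0.60. Schwann cell genes had 4 of 6 lower, with list means of 7.83 to 8.29 against 7.46 to 7.62 and no overlap. Sox10, their defining factor, had a mean of 8.44 ± 0.12 (SD, n = 3) on RIP-Cre arrays and 7.92 ± 0.11 (SD, n = 4) in the double knockout, with no overlap, a fall of 0.52 (SE 0.12, adjusted p = 0.00817), and 1 of the 6 was called without RIP-Cre array 3. Duct genes had 2 of 9 lower (22.2%, near the 20.6% of all genes), the chloride channel Cftr (-0.83) and Cldn10 (-0.81), with list means of 8.24 to 8.48 against 8.07 to 8.12. With wt as the control 4 of the 9 duct genes were lower (44.4%). Of 13 macrophage genes 3 were higher and 1 lower, and 6 and 0 after cyclic loess, with the complement gene C1qb at 0.80 (adjusted p = 0.00307) and list means of 7.61 to 7.70 against 7.71 to 8.09. With wt as the control 2 macrophage genes were higher and 1 lower (median 0.01), and 2 were higher after cyclic loess without RIP-Cre array 3. Of 9 lymphocyte genes 1 was called, Cd79a of B cells (1.20, adjusted p = 0.0457). It read 8.41 on double-knockout array 1, where the lymphocyte mean was 7.67 against 6.70 to 6.80 on the other 3, and it was called with no array left out other than double-knockout array 3.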

How the data were processed

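The authors deposited log2 intensities for 17 arrays of islet RNA, with a value for each of 35512 probe sets. The labels' protocols name biotin-labelled single-stranded DNA. How background was corrected and arrays were normalized is not given in the sources used here, and the base of the logarithm was inferred, since 82.3% of low values lie at log2 of multiples of 0.25. Precision is limited by the number of arrays.

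Probe sets that name exactly 1 gene in the platform's gene table (21789) were kept, while 1621 named several genes and 12102 were not in the table. The probe set with the highest mean over 17 arrays stood for each of 19938 genes, 999 of which had more than 1. A model of group means over the 17 arrays was fitted in limma 3.58.1 under R 4.3.3, and a gene was called at a Benjamini-Hochberg adjusted p under 0.05 over all genes. The procedure was tested on simulated data.

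The members, the 31 gene lists (619 of 669 genes measured) and the rules were chosen with earlier results of these data known. Genes are named by rule: Men1, Kdm5a, 4 hormones, Cdkn1b, Cdkn2c, the 15 highest and 15 lowest, up to 5 in each direction beyond both single knockouts, and up to 3 in each direction per list. Predicted, clone-named, receptor-cluster, immunoglobulin and small RNA symbols that matched a symbol pattern (893 called genes) were not named. The pattern did not cover Vaultrc5, a small RNA that is named. Alternatives were the control group, the arrays fitted, a replicate block, a filter at the 25th percentile, the probe sets used, quantile and cyclic loess normalization, the array median or acinar mean as a covariate, other variances, and each array left out. The fits without array 3 of both groups, cyclic loess without RIP-Cre array 3, and the block with wt as the control were added after seeing the data. Motifs were searched in RefSeq promoters (GRCm38.p6).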

Additional observations from a re-analysis of the deposited data

Results flagged for a closer look

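Within the 4 double-knockout arrays, 7 of the 221 genes covered by the naming rule and 2 list means had an array far from the others. Chance gives such a gap in about 1 in 20 groups, and 7 of 221 genes is not above that rate. Array 1 was high for Irx1 (8.08 against 7.66 to 7.73), the corepressor Rcor1 (9.34 against 9.09 to 9.12), the DNA polymerase subunit Pold1 (8.54 against 8.28 to 8.31) and the B cell receptor subunit Cd79b (9.62 against 7.05 to 7.26). It was also high in the mean of the macrophage list (8.09 against 7.71 to 7.75) and of the lymphocyte list (7.67 against 6.70 to 6.80). Array 2 was high for Kcnh5 (9.61 against 9.04 to 9.12) and low for the complex I subunit Ndufv3 (10.17, with a highest array at 10.52), and array 3 was high for the acinar colipase Clps (11.09 against 9.25 to 9.48).

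Differences between the effect of double loss and the effect of a single loss, both against RIP-Cre, passed the test in limma for the following genes. Since RIP-Cre cancels, each is the double knockout minus the single knockout on the log2 scale. Against Men1 loss, the effect was higher for Pcp4 (1.87), Kcnh5 (1.23), Gpr179 (0.94), Cpne4 (0.89), Slc22a2 (0.60), Slc38a6 (0.55), Spc25 (2.54), Paxip1 (0.52) and Prom1 (1.88). It was lower for Lrrc55 (-2.70), Gdpd3 (-2.84), Apobec1 (-1.12), Spock1 (-0.73), Mpp6 (-0.67) and Rcor1 (-0.35).

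Against Rbp2 loss, the effect was higher for Tceal6 (2.10), Kcnh5 (2.20), Tmem255a (0.79), Gpr155 (0.89), Gpr179 (0.89), Cpne4 (0.85), Slc22a2 (0.60), Slc38a6 (0.84), Mad2l1 (0.63) and Fads2 (0.54). It was lower for Men1 (-1.50), Syne2 (-0.59), Gcgr (-0.92), Spock1 (-0.63), Mpp6 (-0.64), the stress sensor Ern1 (-0.34), Gpr119 (-0.73) and the endothelial receptor Tie1 (-0.41). Their causes were not tested.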

How the results depend on the processing

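Against RIP-Cre, 6716 genes were called as deposited and 280 with the array median held fixed. Array medians do not overlap between the groups, so that this setting and the genotype cannot be told apart. The count was 2891 without array 3 of both groups, 2454 after cyclic loess without RIP-Cre array 3, and 2371 to 7291 with each array left out. It lay between 4954 and 9486 in the remaining settings. Against Men1 RIP-Cre the count was 333, and 111 to 272 with each array left out. Against Rbp2 RIP-Cre it was 239, 109 to 272 with each array left out, and 510 with the array median held fixed. Of the 30 genes at the extremes, 25 stayed called after cyclic loess, 16 with the array median held fixed and 23 with wt as the control. A gene past the threshold in neither setting was counted as unmoved whatever its sign. Called differences changed sign for Ins2 (-0.388) and Sst (-0.425) after cyclic loess and for Adipoq with wt as the control (0.066, with the block 0.087, against -0.32 with RIP-Cre), and the cause was not tested.

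Same-numbered deviations of RIP-Cre and double-knockout arrays correlated at -0.117, -0.03 and 0.267. RIP-Cre arrays 1 and 2 correlated best with double-knockout array 4 (0.273 and 0.11), and RIP-Cre array 3 with double-knockout array 3. RIP-Cre array 3 also correlated with array 3 of Rbp2 RIP-Cre (0.449) and wt (0.31), less with that of Men1 RIP-Cre (0.066). Array 3 had the highest acinar mean of its group except in Men1 RIP-Cre, where array 1 did. What the arrays of repeat 3 share was not tested. For wt and the double knockout the same-numbered correlations were 0.261, 0.26 and 0.33, and wt array 2 correlated better with double-knockout array 4. With wt as the control the replicate block, added after seeing the data, changed the count from 6015 to 5649 genes. With the repeat number as a replicate block 6381, 241 and 211 genes were called against RIP-Cre, Men1 RIP-Cre and Rbp2 RIP-Cre, and 28 of the 30 extremes stayed called. Not every array correlated best with its own number.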

Other observations

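Immune genes are read against all genes, of which 13.0% were called higher and 20.6% lower against RIP-Cre. Of 8 MHC class II genes 2 were called higher and 1 lower (12.5%). With wt as the control none of the 8 was called higher and 2 were lower (median -0.20). Cd74, the chaperone of class II molecules, read 9.31, 9.14 and 9.02 on RIP-Cre arrays and 11.08, 10.04, 9.63 and 10.02 in the double knockout, a rise of 1.04 (adjusted p = 0.0252), and H2-Aa rose by 0.94. H2-Eb1, the beta chain of a second class II molecule, read 9.68, 9.29 and 9.35 against 7.90, 7.42, 9.02 and 9.18, a fall of 1.06 (adjusted p = 0.0412). Arrays 1 and 2 of the double knockout were low and arrays 3 and 4 high, and the call was lost after cyclic loess (adjusted p = 0.0649), without any of the 3 RIP-Cre arrays and without double-knockout array 1 or 2. The macrophage lysozyme Lyz2 read 7.19, 7.83 and 7.02 against 9.84, 8.61, 8.09 and 8.15, a rise of 1.33 (adjusted p = 0.0372) that was lost without double-knockout array 1 or 2 or RIP-Cre array 1 or 3. Of 21 interferon response genes 3 were lower (14.3%) and none higher, led by the signalling factor Stat2 (-0.54, adjusted p = 0.00591), and with wt as the control 10 were lower. Without RIP-Cre array 3, neither Cd74 nor H2-Aa was called, and Cd74 also lost its call without double-knockout array 1.

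Of 10 genes that answer lactogens in islets 3 were called lower, and Tph2, a tryptophan hydroxylase of serotonin synthesis, fell by 0.70, from 7.27, 6.79 and 7.20 to 6.45, 6.43, 6.38 and 6.30 (adjusted p = 0.00269). Of 19 immediate early genes 5 were lower (26.3%, near the share of all genes) and 1 higher (5.26%), with Ier3 at -0.71 and Klf6 at 0.43. The immediate early mean was 9.01 on RIP-Cre array 3, against 8.30 to 8.67 on the other 6 arrays, and without that array Klf6 alone was called in this list. Of 13 mesenchymal genes 2 were lower (15.4%, below the share of all genes) and 1 higher (7.69%), the pericyte gene Rgs5 (0.77, adjusted p = 0.00462). Without RIP-Cre array 3 this left 1 mesenchymal gene higher and none lower, and 1 lactogen gene lower. Of 6 adipocyte genes 2 were lower (33.3%), and neither of 2 red blood cell genes was called.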
